A study of Mus musculus with 28 samples.

Results

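Gad1, Gad2, Slc12a5 and Pvalb are genes of inhibitory nerve cells and of the chloride gradient on which inhibition depends, and they were followed here in the whole brain of mice with and without a nicotine seizure. Members were all probe sets that the platform annotation pairs with exactly 1 gene symbol, where that symbol is one of these 4 names. The rule found 5 of the 12488 probe sets on the Affymetrix U74Av2 array, 1 each for Gad1, Gad2 and Slc12a5 and 2 for Pvalb, which are called the brighter and the dimmer Pvalb set. These are 4 of the 8251 genes that the annotation names singly. The 4 genes were picked from earlier results of these same arrays; the readouts named with them are the signal in each mouse over the groups and the seizure response in each genotype. Fold changes and p-values of the members are therefore given as descriptions of these mice.

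The arrays came from 28 mice, 1 array per mouse, of the strain C57BL/6J, of both sexes and 6 to 9 weeks old. Of untreated mice 6 were wild-type, 5 alpha7 +/T and 5 beta4 null; mice killed 1 hour after a nicotine-induced seizure were 3, 5 and 4 animals of these genotypes. The alpha7 +/T mice were heterozygous for the L250T change in the alpha7 subunit of the nicotinic acetylcholine receptor, and the beta4 null mice lacked the beta4 subunit. Nicotine was given into the peritoneum, at a dose set separately for each genotype to reach seizures of like strength, with no amount stated in the labels. Genotype and dose therefore cannot be told apart among seized mice. The sample titles open with a prefix, LT or B4, whose meaning the labels do not give: every alpha7 +/T mouse carries LT and every beta4 null mouse B4, while of the wild-type mice 3 untreated and 1 seized carry LT and 3 untreated and 2 seized B4. Genotype and prefix therefore cannot be told apart between alpha7 +/T and beta4 null mice, and only wild-type mice bear on the prefix elsewhere. No group here was injected without a seizure, so nicotine, injection and seizure cannot be told apart either. Of the untreated alpha7 +/T mice 4 were 6 weeks old and 1 was 8 weeks old, while all 5 seized ones were 8 weeks old. The wild-type untreated mice were 6 weeks old in 3 cases and 7, 8 and 9 weeks old in the others, and the seized ones 7 or 8 weeks. Beta4 null mice were 6 to 9 weeks old untreated and 7 or 8 weeks old seized.

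GABA, the main inhibitory transmitter of the brain, is made from glutamate by 2 glutamate decarboxylases. The enzyme encoded by Gad1 is spread through the cell and makes most of the GABA, and the one encoded by Gad2 sits largely at nerve endings and supplies transmitter on demand. GABA inhibits by opening chloride channels, and this works in mature neurons because the neuronal potassium-chloride cotransporter encoded by Slc12a5 keeps chloride inside the cell low. Parvalbumin, encoded by Pvalb, is a calcium-binding protein of fast-spiking interneurons and of cerebellar Purkinje cells, and it is also made in skeletal muscle. Loss of GABA synthesis or of chloride export makes brain tissue prone to seizures.

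The arrays fell into 2 classes by a control ratio, with unequal signals of these genes; the labels do not state what lies behind the classes. The control signals for Gapdh, read near the 3 prime and the 5 prime end of its transcript, had a log2 ratio (3 prime over 5 prime) between -0.48 and 0.096 on 9 arrays, here named low-ratio, and one between 1.13 and 2.57 on 19, called high-ratio. The low-ratio arrays were 2 untreated and 3 seized alpha7 +/T mice and 2 untreated and 2 seized beta4 null mice, and all wild-type arrays were high-ratio. The deposited signals had been scaled to a common trimmed mean of 150.1. Of 8 neuron markers 7 were tested, and 5 of these exceeded the array median on all 28 arrays, Nefm on 27 and Map2 on 11. Their signals summed to between 7304 and 11898 on every array, of which Snap25 alone gave 4339 to 7460. In pooled tissue such as whole brain, fewer cells of a type and less RNA per cell cannot be told apart.

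Gad1 and Pvalb were bright and the others dim on this array. The mean signal of Gad1 stood at percentile 98.4 of all probe sets that are not controls, the brighter Pvalb set at percentile 98.3, the dimmer Pvalb set at 72.0, Slc12a5 at 60.1 and Gad2 at 40.4. Probe sets differ in how well they bind, so these ranks describe probe sets and do not order the genes. Gad1 and both Pvalb sets exceeded the median signal of their array on all 28 arrays, Slc12a5 on 23 and Gad2 on 9. Those 9 arrays were exactly the low-ratio ones. All 5 probe sets met the requirement of exceeding the array median on at least 3 arrays and were tested with 7350 in all, but Gad2 met it only through the low-ratio arrays.

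Gad1 lies on chromosome 2 (70561303 to 70602014 of GRCm38.p6, in the RefSeq gene table) and is read from the plus strand. It is the member whose signal moved with seizure, so the 250 bases before a transcript start listed by RefSeq, which lies inside the gene record, are shown here, at chr2:70561879-70562128 on the plus strand, written 5′ to 3′. Capitals mark the only motif found among those searched. For Slc12a5 (chromosome 2, 164960846 to 164999731) the first of 2 RefSeq windows is printed beside it, at chr2:164960596-164960845 on the plus strand. Slc12a5 signal varied too widely within groups to show a shift the size of that of Gad1.
Gad1: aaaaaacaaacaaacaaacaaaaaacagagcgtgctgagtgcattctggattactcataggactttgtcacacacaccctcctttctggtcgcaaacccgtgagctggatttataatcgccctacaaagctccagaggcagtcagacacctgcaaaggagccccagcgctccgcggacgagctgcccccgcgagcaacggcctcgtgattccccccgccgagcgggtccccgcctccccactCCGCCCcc
Slc12a5: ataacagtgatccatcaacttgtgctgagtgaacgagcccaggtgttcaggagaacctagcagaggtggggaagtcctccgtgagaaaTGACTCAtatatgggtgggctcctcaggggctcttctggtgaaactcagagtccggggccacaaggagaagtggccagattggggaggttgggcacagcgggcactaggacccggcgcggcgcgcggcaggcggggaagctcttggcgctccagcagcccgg
The capitals in Gad1 are a GC box (GGGCGG, here read on the other strand), whose first base lies 8 bases before the start, and 32.7% of the 32851 promoter windows of this length hold one. The capitals in Slc12a5 are a match to the AP-1 motif (TGANTCA), 162 bases before the start; 6.75% of windows hold one. The other motifs searched on both strands were the cyclic AMP response element (TGACGTCA, in 1.55% of windows), its shorter core TGACG, which any full element also contains (17.8%), the Egr motif (GCGNGGGCG, 4.70%), the Nr4a motif (AAAGGTCA, 1.34%) and the E box (CACGTG, 6.02%). Seizure-induced transcription factors bind several of these motifs. The Gad1 window held no match besides its GC box, Gad2 (chromosome 2, 22621015 to 22693877) held the TGACG core 33 bases before its start, the second Slc12a5 window held a GC box and an E box, and both windows of Pvalb (chromosome 15, 78191112 to 78206400) held no match. A match describes letters in a window and is not a bound site.

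Gad1 signal was higher after seizure in wild-type and alpha7 +/T mice and lower after seizure in beta4 null mice, with no overlap between seized and untreated animals in any of the 3 genotypes. In untreated wild-type mice Gad1 signal ran from 1622 through a median of 1729 to 2064, and in the 3 seized ones it was 2157, 2197 and 2284. Every seized wild-type mouse thus stood above every untreated one. In untreated alpha7 +/T mice the signals were 1694, 1577, 1598, 1505 and 1886, and in seized ones 2257, 2198, 2144, 2284 and 2024. The lowest seized alpha7 +/T mouse stood above the highest untreated one. That untreated mouse, at 1886, was the only one of its group aged 8 weeks, the age of all seized alpha7 +/T mice. In untreated beta4 null mice the signals were 2158, 2013, 2082, 2058 and 2106, and in seized ones 1876, 1894, 1980 and 1773. Here the order was the opposite, and the highest seized mouse stood below the lowest untreated one.

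**Figure D1:**
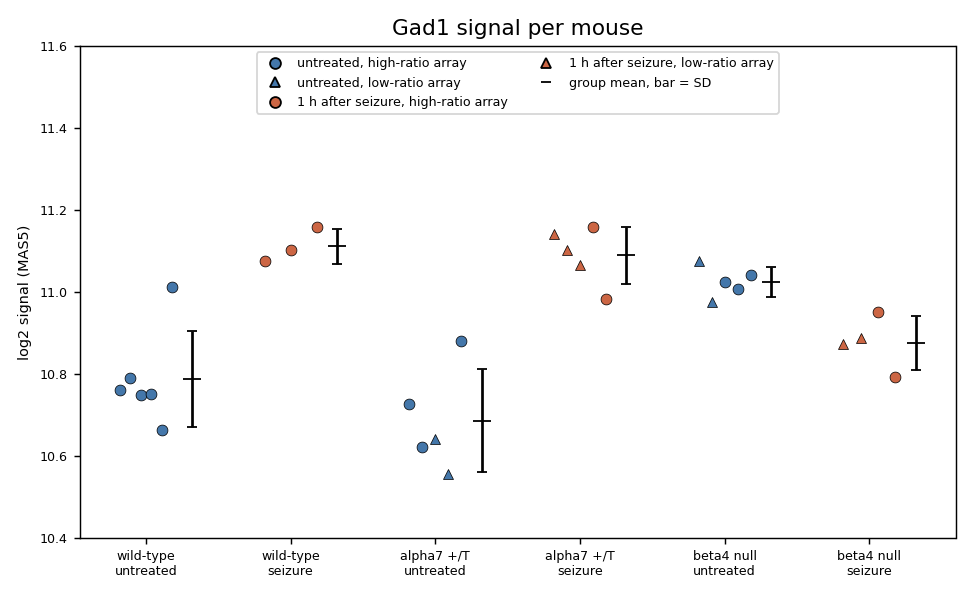
Gad1 log2 signal (MAS5) per mouse in the 6 groups. Each point is 1 mouse, triangles are low-ratio and circles high-ratio arrays, and bars show group mean and SD. On the linear scale seized wild-type mice (2157 to 2284) and seized alpha7 +/T mice (2024 to 2284) lie above their untreated groups, and seized beta4 null mice (1773 to 1980) lie below theirs (2013 to 2158).

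A lack of overlap with seized mice higher was found for 2.53% of the 7350 probe sets in wild-type mice, with 1.63% for alpha7 +/T and 0.422% for beta4 null, and with seized mice lower for 1.7%, 1.32% and 0.599%. Groups without overlap in all 3 genotypes, whatever the direction, were found for 4 probe sets (0.0544%), those of Fos, Nr4a1, Ddit4 and Gad1. Fos and Nr4a1 are immediate early transcription factors and Ddit4 is a stress-induced inhibitor of growth signalling. Fos, Nr4a1 and Ddit4 were higher in each genotype, with log2 differences between 0.48 and 2.48. Gad1 was the 1 probe set (0.0136%) that was higher in wild-type and alpha7 +/T mice and lower in beta4 null mice. This pattern is the order of Gad1 itself, which was picked from these same arrays, so its rarity is a description only.

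The group means of Gad1 on the log2 scale placed untreated alpha7 +/T mice lowest, at 10.69 ± 0.13 (SD, n = 5). They were followed by untreated wild-type at 10.79 ± 0.12 (n = 6), seized beta4 null at 10.88 ± 0.066 (n = 4), untreated beta4 null at 11.02 ± 0.038 (n = 5), seized alpha7 +/T at 11.09 ± 0.069 (n = 5) and seized wild-type mice at 11.11 ± 0.042 (n = 3). Between neighbours in this order, the step from seized to untreated beta4 null mice was larger than the greater of both SDs, and the other 4 steps were not. Untreated beta4 null mice thus sat near the seized mice of the other genotypes.

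The fit across all probe sets (limma, Benjamini-Hochberg adjustment over 7350, threshold 0.05, two-sided) called 2.8% of probe sets in seized against untreated alpha7 +/T mice, 1.71% as higher and 1.09% as lower. Of the 5 member probe sets, 1 was among them. Gad1 was 1.32-fold higher there, a log2 difference of 0.40 ± 0.085 (SE; 95% confidence interval 0.23 to 0.58; limma adjusted p = 0.00989), with 5 seized against 5 untreated mice. The call was kept with each of the 28 mice left out in turn, but it was lost on the high-ratio arrays alone, where the log2 difference was 0.33 and the adjusted p 0.179. Of 50 genes tested from 13 lists of cell type markers, 1 passed in this comparison: Cldn5, a tight junction gene of endothelium, fell by 1.26 (value -1.26), and its part in the Gad1 value was not tested. Age moved with this comparison, and with age as a covariate the difference was 0.39 (adjusted p = 0.141). With mice below 7 weeks left out, which kept 1 untreated alpha7 +/T mouse, the difference was 0.21 (adjusted p = 0.806). A fit of these 2 groups alone left the difference at 0.40 with a larger SE of 0.13 and did not call it (adjusted p = 0.267); over all 20 alternatives the adjusted p ran from 0.00169 to 0.806.

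In wild-type mice the difference in Gad1 was 0.32 ± 0.095 on the log2 scale (SE; 95% confidence interval 0.13 to 0.52; 1.25-fold higher) and did not pass (limma adjusted p = 0.747); 0.0544% of all probe sets passed and 0 of the 5 members. In beta4 null mice it was -0.15 ± 0.090 (interval -0.33 to 0.037; limma adjusted p = 1.00), where 0.0136% of all and 0 of the 5 members passed. Averaged over genotypes with equal weights, Gad1 was higher by 0.19 ± 0.052 (limma adjusted p = 0.134), and 0.408% of all and 0 of the 5 members passed. An unadjusted p under 0.05 was reached by 1 of the 5 members, Gad1, in wild-type mice and in the average, and by 0 in beta4 null mice, against 4.24%, 8.64% and 1.74% of all probe sets.

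Whether the seizure difference of Gad1 itself differed between genotypes was compared directly. The F test of the interaction gave an unadjusted p of 0.000301 and a limma adjusted p of 0.203, so Gad1 did not pass; 2 of all probe sets (0.0272%) and 0 of the 5 members did. The difference in alpha7 +/T mice exceeded that in beta4 null mice by 0.55 ± 0.12 (log2, SE; limma adjusted p = 0.10), where 0.0272% of all probe sets passed; these genotypes share no title prefix. The difference in beta4 null mice was below that in wild-type mice by 0.47 on the log2 scale (value -0.47 ± 0.13; unadjusted p = 0.00128, limma adjusted p = 1.00). Between alpha7 +/T and wild-type mice it was 0.080 ± 0.13 (95% confidence interval -0.18 to 0.34), and in both of these comparisons with wild-type mice limma called 0 probe sets, with 212 and 545 of 7350 at an unadjusted p under 0.05. The 3 contrasts share mice with one another.

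With array class as a covariate the interaction of Gad1 passed (limma adjusted p = 0.0302), as did the average over genotypes (0.20, adjusted p = 0.0447). Over 18 alternatives each, the interaction passed in 1 and the average in 2. That covariate also raised the number of all probe sets called in seized against untreated alpha7 +/T mice. Within the low-ratio arrays Gad1 was 1505 and 1598 in untreated and 2144 to 2257 in seized alpha7 +/T mice, and 2013 and 2158 in untreated and 1876 and 1894 in seized beta4 null mice. Within the high-ratio arrays it was 1577 to 1886 against 2024 and 2284, and 2058 to 2106 against 1773 and 1980. The opposite order of both genotypes within each class was fixed in advance, since seized and untreated mice did not overlap in either whole genotype. It therefore adds no support. The fitted class coefficient of Gad1 was -0.027 ± 0.057 (log2, low minus high ratio), and its age coefficient was 0.010 ± 0.032 per week.

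**Figure D2:**
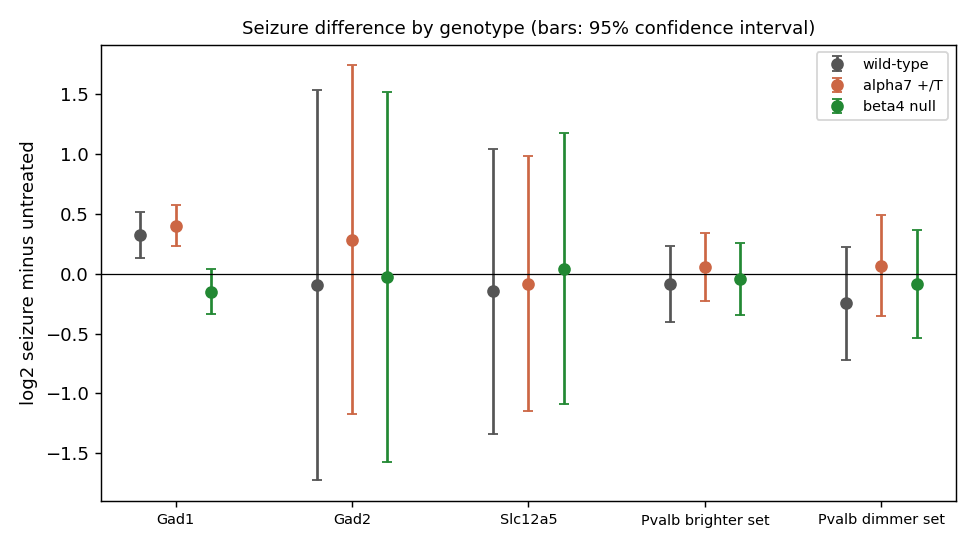
Log2 difference of seized minus untreated mice for each member probe set in wild-type, alpha7 +/T and beta4 null mice; points are fitted differences and bars the 95% confidence interval. The Gad1 intervals lie above 0 in wild-type (0.13 to 0.52) and alpha7 +/T mice (0.23 to 0.58) and reach from -0.33 to 0.037 in beta4 null mice, while all intervals of the other probe sets include 0.

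Before seizure the Gad1 levels of the genotypes overlapped in part. Untreated beta4 null mice were 0.24 ± 0.082 above untreated wild-type mice (log2, SE; limma adjusted p = 0.356), a comparison in which 0.0136% of all probe sets and 0 of the 5 members passed. Of the 5 beta4 null mice 3 lay above all untreated wild-type mice, and the other 2 lay below 1 wild-type mouse at 2064; the next highest wild-type mouse was at 1769. Untreated alpha7 +/T mice were -0.10 ± 0.082 against wild-type (limma adjusted p = 0.373).

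Gad2 signal did not separate any group. In untreated wild-type mice it ran from 6.65 through a median of 15.1 to 24.7, and in seized ones it was 16.9, 18.3 and 9.26. In alpha7 +/T mice it was 12.6, 47.7, 112, 59.1 and 34.4 untreated and 110, 58.9, 110, 16.4 and 31.3 seized. In beta4 null mice it was 70.8, 94.2, 15.2, 13.4 and 17.3 untreated and 70.7, 85.2, 22.5 and 5.40 seized. Seized and untreated mice overlapped in every genotype, and values spanned 20.8-fold.

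The Gad2 values followed array class. All 9 low-ratio arrays lay between 58.9 and 112 and all 19 high-ratio arrays between 5.40 and 47.7. The coefficient of array class was 2.17 ± 0.31 (log2, low minus high ratio), given with no test, since Gad2 entered the fit through the low-ratio arrays alone. Seizure differences of Gad2 were -0.094 (wild-type), 0.28 (alpha7 +/T) and -0.026 (beta4 null), with the widest interval from -1.72 to 1.54 in wild-type mice. Over all 10 comparisons Gad2 did not pass, with limma adjusted p between 0.121 and 1.00. Differences the size of those of Gad1 were not detectable for Gad2 with this spread.

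Slc12a5 was likewise spread widely within groups. Its signal in untreated wild-type mice ran from 35.0 through a median of 61.2 to 186, and in seized ones it was 69.8, 62.3 and 59.9. In alpha7 +/T mice it was 38.7, 218, 209, 74.6 and 89.2 untreated and 148, 140, 138, 46.0 and 67.4 seized. In beta4 null mice it was 104, 175, 58.2, 54.2 and 46.6 untreated and 101, 185, 48.5 and 43.6 seized. Seized and untreated mice overlapped in all 3 genotypes, and with this spread differences the size of those of Gad1 were not detectable for Slc12a5. The log2 seizure difference was -0.15 for wild-type (95% confidence interval -1.34 to 1.05), -0.083 for alpha7 +/T (-1.15 to 0.98) and 0.044 for beta4 null mice (-1.09 to 1.17).

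Array class and sex both moved with Slc12a5. The class coefficient was 1.17 ± 0.31 (limma adjusted p = 0.00215), and low-ratio arrays ran from 74.6 to 209. Among the high-ratio arrays the 11 females lay between 35.0 and 69.8 and the 8 males between 43.6 and 218. Of these males those titled LT lay between 89.2 and 218 and those titled B4 between 43.6 and 70.3. The coefficient of title prefix was 0.995 ± 0.53 (log2, LT minus B4, limma adjusted p = 0.840). The coefficient of sex over all arrays was 1.12 ± 0.24 (log2, male minus female; limma adjusted p = 0.0800). Of the 9 low-ratio arrays 7 were from males, so sex and class partly coincide. Slc12a5 passed in none of the 10 comparisons (limma adjusted p from 0.430 to 1.00).

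**Figure D3:**
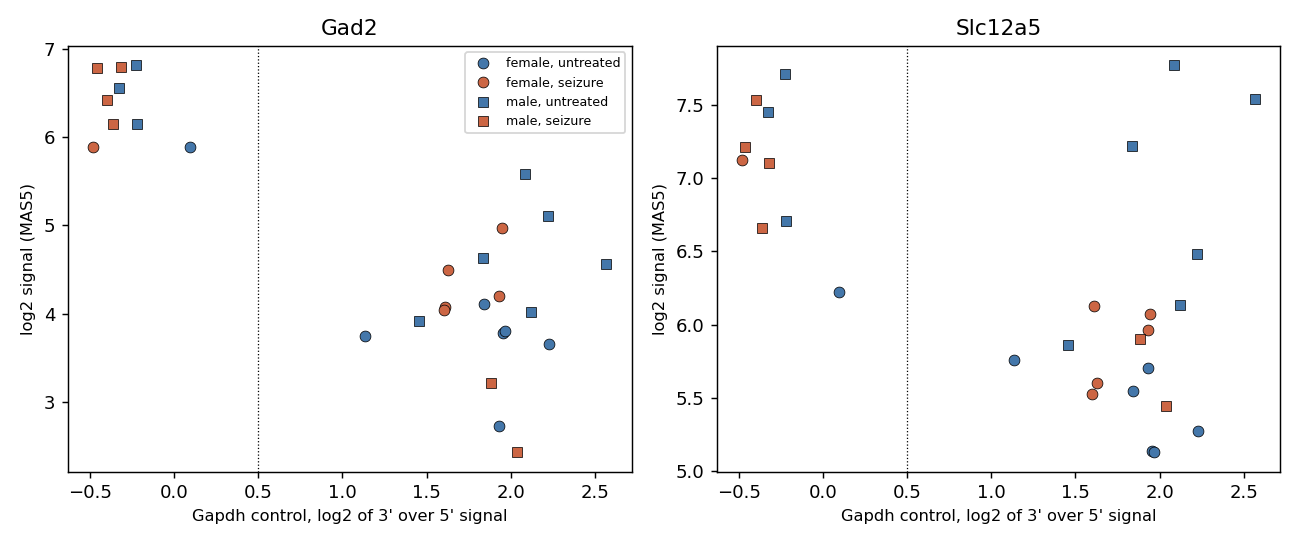
Log2 signal of Gad2 (left) and Slc12a5 (right) against the Gapdh control log2 ratio of 3 prime over 5 prime signal, 1 point per mouse, shaped by sex and coloured by treatment. The dotted line at 0.5 divides the classes. All 9 arrays to its left exceed all 19 to its right for Gad2, whereas for Slc12a5 high-ratio arrays of male mice reach 218 and overlap the low-ratio arrays.

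In the brighter Pvalb set seized and untreated mice overlapped in every genotype. Its signal in untreated wild-type mice ran from 1404 through a median of 2019 to 2259, and in seized ones it was 1808, 1772 and 1889. In alpha7 +/T mice it was 1786, 2001, 1214, 1677 and 1965 untreated and 1346, 1904, 1710, 2051 and 1927 seized. In beta4 null mice it was 1909, 1646, 1733, 2111 and 1953 untreated and 1833, 1771, 1862 and 1770 seized. The lowest values were single mice of the wild-type and alpha7 +/T groups. The seizure differences were -0.081 ± 0.15, 0.055 ± 0.14 and -0.043 ± 0.15 (log2, SE) in wild-type, alpha7 +/T and beta4 null mice, with 95% confidence intervals inside -0.40 to 0.34.

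The dimmer Pvalb set was lower in untreated alpha7 +/T mice than in untreated wild-type mice. The signal in untreated wild-type mice ran from 146 through a median of 199 to 258, and in untreated alpha7 +/T mice it was 153, 120, 81.9, 136 and 122. The ranges overlapped by 1 mouse on each side. The set was 1.64-fold lower in untreated alpha7 +/T mice, a log2 difference of -0.71 ± 0.20 (SE; 95% confidence interval -1.12 to -0.31; limma adjusted p = 0.0238). This was 1 of the 5 member probe sets, in a comparison where 16% of all probe sets passed (7.73% higher and 8.29% lower), so the count of members was near the background. The brighter set differed by -0.18 ± 0.13 in the same comparison (limma adjusted p = 0.331).

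The call for the dimmer set was kept in 13 of 19 alternatives, among them those with only array class or only age as a covariate. Other settings lost it, as did leaving out some single mice. It was lost without untreated wild-type replicate 3 or 6 or without untreated alpha7 +/T replicate 3 or 4, with an adjusted p of up to 0.0945, and it was lost on high-ratio arrays alone (-0.59, adjusted p = 0.108). It was also lost with title prefix as a covariate (-0.58, adjusted p = 0.121) and against the 3 wild-type animals titled LT (-0.57, adjusted p = 0.20), and kept against the 3 titled B4 (-0.85, adjusted p = 0.0470). Without mice under 7 weeks, which left 1 untreated alpha7 +/T mouse, the difference was -0.83. The dimmer set was lower on low-ratio arrays by 0.46 (coefficient -0.46 ± 0.12; limma adjusted p = 0.00255), as was the brighter set (-0.22 ± 0.088; adjusted p = 0.0397). Against wild-type mice, untreated beta4 null mice differed in the dimmer set by -0.39 ± 0.20 (adjusted p = 0.401). The identifiers of both Pvalb sets carry a suffix, _f for the dimmer and _i for the brighter set. By the suffix of the dimmer set Affymetrix marks sets that may bind related sequences.

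Markers of the cerebellum, whose Purkinje cells hold parvalbumin, and of skeletal muscle were read beside this. Of 6 tested markers of cerebellar Purkinje and granule cells, 3 fell in alpha7 +/T mice before seizure relative to wild-type: Car8 of Purkinje cells by 0.90, and Zic1 and Gabra6 of granule cells by 0.79 and 0.58 on the log2 scale (values -0.90, -0.79 and -0.58; limma adjusted p 0.0320, 0.0271 and 0.0322). The other 3 lay above 0 without passing, Pcp2 of Purkinje cells at 0.0035, Neurod1 at 0.015 and Cbln1 at 0.34 (limma adjusted p 0.990, 0.964 and 0.110). Tbr1, a factor of glutamatergic neurons, fell by 0.82 (value -0.82), and Mag, a myelin gene, rose by 1.53. These 5 were the marker genes that passed, 10% of the 50 tested against 16% of all probe sets. The summed signal of the 6 was 2710 to 4301 in untreated alpha7 +/T and 4149 to 5115 in untreated wild-type mice. Skeletal muscle markers summed to between 152 and 284 on every array, and limma called 0 of 4 there, with 1 at an unadjusted p under 0.05, a level reached by 35.1% of all probe sets. The part of these markers in the Pvalb result was not tested.

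After seizure the dimmer Pvalb set was 149, 180 and 169 in wild-type mice, 121, 120, 112, 111 and 173 in alpha7 +/T mice and 110, 118, 204 and 151 in beta4 null mice. Untreated beta4 null mice stood at 102, 125, 169, 210 and 168. All 3 genotypes overlapped with their untreated mice, and the seizure differences were -0.25, 0.067 and -0.085 on the log2 scale. Over the seizure comparisons the smallest adjusted p of the dimmer set was 0.877 and that of the brighter set 0.882.

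**Figure D4:**
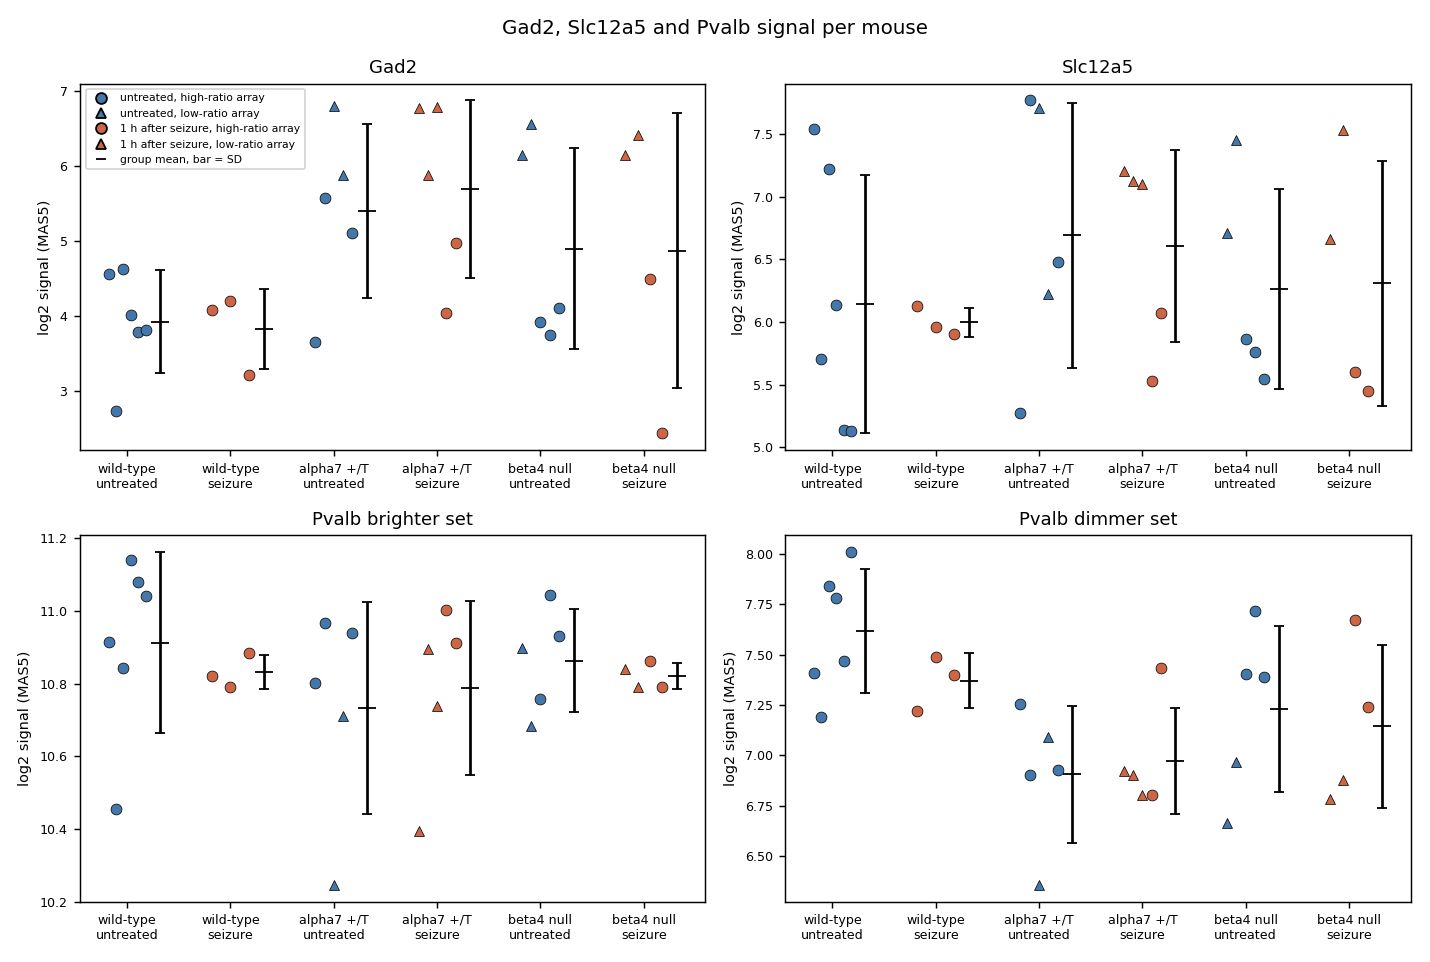
Log2 signal per mouse of Gad2, Slc12a5 and both Pvalb sets in the 6 groups, 1 point per mouse, with array class marked as in the legend. Seized and untreated mice overlap in every genotype and panel, and Gad2 falls into a high band of 9 low-ratio arrays and a low band of 19 high-ratio arrays.

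Across the 28 mice the members did not vary as one. Pearson's r between log2 signals of Gad1 and Gad2 was 0.0067, given as a description of arrays that share class and group structure. Gad2 and Slc12a5 had r = 0.78, and r = 0.65 once class means were removed, with 0.70 within the 9 low-ratio and 0.64 within the 19 high-ratio arrays. The 2 Pvalb sets, which read 1 gene, had r = 0.52, and 0.29 with class means removed.

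The probe sets most like each member over the mice were ranked by r with class means removed, n = 28. For Gad1 they were those of Kit (0.77), Itgav (0.77), Hnrnph2 (0.75), Klf10 (0.75) and Acvr2a (0.75); Kit is a receptor tyrosine kinase and Klf10 a transcription factor. Without removing class means the r values of these were 0.77, 0.70, 0.70, 0.74 and 0.58. For Gad2 they were P2rx1, Sstr4, Dpysl2, Diaph1 and Slc11a2 (0.67 to 0.78), for Slc12a5 Mtdh, Gnai1, St3gal2, Pex7 and Rfk (0.80 to 0.82), and for the brighter Pvalb set Atp5l, Nop10, Ddb1, Ubl5 and Rpia (0.69 to 0.75). The 99th percentile of r over all probe sets was 0.65 for Gad1, 0.55 for Gad2, 0.68 for Slc12a5 and 0.54 for Pvalb.

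The other genes around GABA were read in 4 lists. Genes are given by their brightest probe set, and the median log2 seizure difference over 5599 genes was 0.027 for wild-type, 0.0093 for alpha7 +/T and -0.013 for beta4 null mice. In wild-type mice, beta4 null mice and the average over genotypes, limma called 0 of the 52 tested genes of the lists, with 2, 1 and 5 at an unadjusted p under 0.05 (all probe sets 4.24%, 1.74% and 8.64%). In alpha7 +/T mice 3 of the 52 genes passed (5.77%), 1 of them Gad1, which was picked from these same arrays, and 10 had an unadjusted p under 0.05. Over all probe sets, a unit other than genes, the shares were 2.8% and 18.4% in alpha7 +/T mice. There, of 7 tested genes of GABA synthesis, transport and breakdown 1 rose, Gad1 itself, and the list's median difference was 0.28. Of 12 genes of GABA receptors and their anchors limma called 0, with 2 at an unadjusted p under 0.05 (median 0.30), and of 13 genes of chloride and bicarbonate balance it called 0, with 4 (median 0.16). Of 20 genes of interneuron types 1 rose and 1 fell (median -0.012). Of 7 tested neuron markers limma called 0 in this comparison, with 1 at an unadjusted p under 0.05, and their median difference was 0.38. Their part in the list medians was not tested.

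The genes of the interneuron list that passed were Reln and Cck. Which cells gave these signals cannot be told in whole brain. Reln, which encodes the secreted matrix protein reelin, rose in alpha7 +/T mice by 0.67 ± 0.16 (log2, SE; limma adjusted p = 0.0184), from 307 to 537 untreated (median 354) to 489 to 802 seized (median 589). Cck, which encodes the neuropeptide cholecystokinin, fell there by 0.65 (value -0.65 ± 0.18; limma adjusted p = 0.0454), from a median of 2858 (1458 to 3184) to 1605 (1401 to 1830). Both ranges overlapped between seized and untreated mice. On high-ratio arrays alone neither Reln nor Cck passed (0.80, adjusted p = 0.106, and -0.56, adjusted p = 0.281), and with each array centred on its median neither passed (adjusted p 0.0982 and 0.0591). Other peptide genes of that list, for somatostatin (Sst) and neuropeptide Y (Npy), differed by -0.25 and -0.32 in alpha7 +/T mice. In beta4 null mice Sst and Npy differed by 0.23 and 0.092, and neither passed in either genotype.

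Slc32a1, the carrier that loads GABA into synaptic vesicles, differed after seizure by -0.22 (wild-type), -0.036 (alpha7 +/T) and -0.082 (beta4 null) on the log2 scale, without passing. Slc12a2 encodes the cotransporter that brings chloride into cells, against the export by the product of Slc12a5. In alpha7 +/T mice it was 402 to 998 untreated (median 460) and 627 to 888 seized (median 861), a difference of 0.55 ± 0.19 that did not pass (limma adjusted p = 0.108).

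Before seizure, where 16% of all probe sets passed between alpha7 +/T and wild-type mice, 1 of the 7 synthesis and transport genes, 3 of the 12 receptor genes, 3 of the 13 chloride genes and 0 of the 20 interneuron genes passed. Slc12a2 fell by 0.79 on the log2 scale (value -0.79 ± 0.18; limma adjusted p = 0.0136), from a median of 904 to 460. The chloride transporters of endosomes and lysosomes, Clcn3 and Clcn7, differed in opposite directions (-0.40, adjusted p = 0.0332, and 0.98, adjusted p = 0.0266). Of receptor subunits Gabrd rose by 0.90 and Gabra6, a subunit of cerebellar granule cells, fell by 0.58 (value -0.58). Gabarapl1, related to a receptor-binding protein, rose by 0.43, as did the GABA transporter Slc6a13 by 0.46. Slc32a1 was -0.70 ± 0.26 (limma adjusted p = 0.0617).

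**Figure D5:**
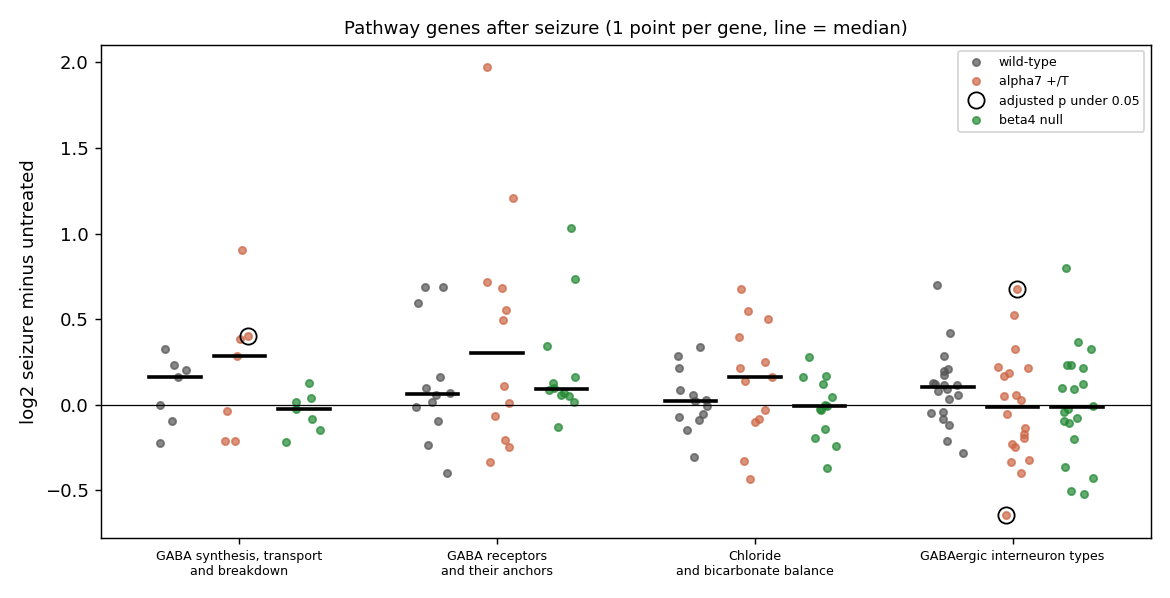
Log2 difference of seized minus untreated mice for the tested genes of the 4 lists, 1 point per gene, in wild-type, alpha7 +/T and beta4 null mice; lines are list medians and rings mark genes with an adjusted p under 0.05. The ringed genes are Gad1 (0.40), Reln (0.67) and Cck (-0.65), all in alpha7 +/T mice.

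The comparison of untreated alpha7 +/T with untreated wild-type mice moved as a whole with the scaling of the arrays. The median over all probe sets was 0.063 as deposited and -0.18 when each array was centred on its median; the probe sets called were 568 higher and 609 lower as deposited, and 191 and 1256 after centring. The 11 list and marker genes named as passing in it kept their sign under centring, quantile normalization, array class as a covariate and on high-ratio arrays alone, where 8, 8, 6 and 0 of them passed. After centring Gabarapl1 was 0.19 (adjusted p = 0.181), Slc6a13 0.22 (adjusted p = 0.297) and Gabrd 0.66 (adjusted p = 0.0710), and after quantile normalization Clcn3, Gabrd and Slc6a13 did not pass. With array class as a covariate Car8, Clcn3, Gabra6, Gabrd and Slc6a13 did not pass (adjusted p 0.0565 to 0.0866), and Clcn7 was 0.59, Mag 0.94, Tbr1 -0.52 and Zic1 -0.51, all passing. In the dimmer Pvalb set the difference was -0.95 after centring and -0.80 after quantile normalization, passing in both. Gad1 there was -0.34 after centring (adjusted p = 0.0495) and 0.0025 after quantile normalization, so no direction is given for it. In seized against untreated alpha7 +/T mice the split was 126 higher and 80 lower as deposited and 67 and 67 after centring, and Gad1 was 0.37 with an adjusted p of 0.130.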

How the data were processed

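Total RNA of whole brain from 28 mice was hybridised to 1 Affymetrix U74Av2 array each, per the labels. The deposited values are linear signal intensity per probe set, which the authors computed in MAS5 per the submitters' processing notes, with no version stated. Without detection calls it is unknown whether a dim signal exceeded background; precision is limited by how many arrays there are. The labels give each sample as 1 mouse.

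Genes were named through the platform annotation, from probe sets with 1 gene symbol (10833 of 12488), and 66 controls were left out. Values were taken as log2. Probe sets above the median of their own array on at least 3 arrays (7350) were fitted with limma (3.58.1, R 4.3.3; lmFit, eBayes with trend), with a mean for every group (6) fitted to all 28 arrays, and p was adjusted over all of them by Benjamini-Hochberg, two-sided, at 0.05. The fit was tested on simulated data. Array class was set by a Gapdh control log2 ratio below 0.5. The genes described, the lists and the array class were chosen with earlier results of these data known. Named were all members, list genes past the threshold, and Slc12a2, Slc32a1, Sst and Npy; Abat fell under this rule too but was not analysed here, and other genes of the rule are not reported here. Fos, Nr4a1 and Ddit4 were named after their values were seen. Per gene, the brightest probe set was used.

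The alternatives comprised median centring, quantile normalization, a floor signal of 11.58, other filters, other eBayes settings, array weights, covariates (array class, sex, age, title prefix), subsets of arrays or mice, and each mouse left out in turn. Fits with array class or high-ratio arrays joined to age, and fits with wild-type mice of 1 title prefix, were added after seeing the data, as was reading scaling and array class for the list genes. Sequences are from RefSeq (GRCm38.p6), which served for names, gene positions and promoters only; the arrays carry no coordinates.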

Additional observations from a re-analysis of the deposited data

Results flagged for a closer look

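In untreated wild-type mice 1 animal, replicate 6, stood apart from the other 5 in Gad1, with a signal of 2064 and a gap to the next of 0.639 of the group's log2 range. Without it the Gad1 seizure difference in wild-type mice was 0.37 (limma adjusted p = 0.392). In the dimmer Pvalb set, seized alpha7 +/T replicate 5 stood apart at 173, with a gap of 0.812 of the log2 range. Both came from 25 checks of a group of 4 or more mice, of which chance flags about 5%.

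Gad1 was picked from earlier results of these same arrays, so unadjusted tests of its seizure response describe these mice only. The limma F test of the interaction, made on the difference itself, gave an unadjusted p of 0.000301 and an adjusted p of 0.203. The Gad1 seizure difference was 0.55 (log2) greater in alpha7 +/T than in beta4 null mice (limma adjusted p = 0.10). Beta4 null minus wild-type was -0.47 (limma adjusted p = 1.00). None of these passed over all probe sets.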

How the results depend on the processing

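No paired analysis was possible because the labels give no replicate number that groups share. Of the 5 member probe sets, 1 passed in seized against untreated alpha7 +/T mice; 0 did with median centring, high-ratio arrays only, age as a covariate, without mice under 7 weeks, the compared groups only, or high-ratio arrays with age. There Gad1 was called in 14 of 20 alternatives, at 0.21 to 0.50 over all 20. In the average over genotypes 1 passed instead of 0 with array weights or array class as a covariate, in wild-type mice 1 with array weights, and in the interaction 1 with array class as a covariate. Before seizure, alpha7 +/T against wild-type, 2 passed with median centring, and 0 with high-ratio arrays only, mice of 7 weeks or older, title prefix as a covariate, array class and age, high-ratio arrays with age, or wild-type mice of the LT prefix only. Leaving out each mouse gave 0 to 1 for this comparison, the average and the interaction. In the latter 2 a Gad1 call was gained without untreated alpha7 +/T replicate 5, the only mouse of that group aged 8 weeks.

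Signs turned as follows, with no call at the turned values. Gad1 before seizure, alpha7 +/T minus wild-type, was 0.0025 with quantile normalization and 0.073 in mice of 7 weeks or older, against -0.34 and a call with median centring; its seizure difference in alpha7 +/T minus wild-type was -0.094 in mice of 7 weeks or older and -0.015 on high-ratio arrays with age. The dimmer Pvalb set after seizure was -0.027 with array weights and -0.054 with age in alpha7 +/T mice, 0.016 on low-ratio arrays in beta4 null mice, and -0.23 with array weights for beta4 null minus wild-type. Leaving out single mice moved these last 3 comparisons over -0.070 to 0.15, -0.26 to 0.037 and -0.016 to 0.28. Signs changed in 30 of 164 alternative values of Gad2, 42 of 164 of Slc12a5 and 20 of 173 of the brighter Pvalb set; the cause was not tested. Low-ratio arrays alone held no wild-type mice and gave no value there. Over all probe sets, calls in alpha7 +/T mice after seizure ran from 4 (compared groups only) to 978 (array class as a covariate), against 206; before seizure from 3 (high-ratio arrays only) to 1447 (median centring), against 1177. For the average they ran from 9 to 645, in wild-type from 0 to 35, in beta4 null from 0 to 21, for the interaction from 0 to 33 and in untreated beta4 null against wild-type mice from 0 to 7.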
